A study of Homo sapiens with 6 samples.

Results

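The genes described are 32 genes of cholesterol and fatty acid synthesis, chosen by symbol from the pathway that the SREBP transcription factors control and matched to the Ensembl identifiers of the count files, out of 58395 genes listed there. They hold 4 regulators (SREBF1, SREBF2, SCAP, INSIG1), 18 genes of the sterol branch from ACAT2 to DHCR7, the sterol carrier STARD4, and 9 genes of the fatty acid branch (ACLY, ACACA, FASN, SCD, ELOVL5, ELOVL6, FADS1, FADS2, ACSS2). All 32 matched and all 32 passed the filter on low counts. They were chosen with earlier results of these data known, so the shares called among them are descriptions only. The cells are HCT116, an established line of human colorectal cancer cells, grown in medium with serum. In the 3 shControl samples they carry a lentiviral non-target hairpin, and in the 3 shSTBD1 samples a lentiviral hairpin against STBD1, a protein proposed to bring glycogen to autophagy. Infected cells were kept in a selection medium, each group rests on 1 hairpin sequence, and the comparison asks how the RNA of the cells differs when STBD1 is depleted. The series' design text and the paper call the samples biological replicates without saying whether they were infected separately, so the p-values measure the spread between these libraries.

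As background, cells make cholesterol from acetyl-CoA through mevalonate, squalene and lanosterol, and they make fatty acids from citrate through acetyl-CoA and malonyl-CoA. SREBF1 and SREBF2 encode transcription factors that are held in the membrane of the endoplasmic reticulum. SCAP escorts them to the Golgi, where proteases free their active part, and INSIG1 holds SCAP back when sterols are plentiful. INSIG1 is itself a target of the factors that it restrains, as are most enzymes of both branches.

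One library per sample was sequenced, with totals between 17689097 and 21668274 expected counts, and 15566 genes held enough counts to be tested. Levels are given as CPM, a gene's count as a share of the library total after TMM scaling, and edgeR's quasi-likelihood F-test compares the groups, with Benjamini-Hochberg adjustment over all 15566 genes. STBD1 (ENSG00000118804) is at 16.2, 15.7 and 14.4 CPM in shControl and at 11.6, 9.06 and 9.18 CPM in shSTBD1. The groups do not overlap, and the log2 fold change is -0.64 (standard error 0.098, edgeR quasi-likelihood adjusted p = 0.000291). STBD1 shares exon bases with FAM47E-STBD1 on the same strand, and RSEM's posterior standard deviation is 8.56% of its count. Of 6 colon epithelial markers, 5 are tested and 4 (KRT8, KRT18, KRT19 and CDH1) are higher in shSTBD1, EPCAM is not called, and VIL1 reaches at most 0.312 CPM. Their summed level runs from 3334 to 3570 CPM in shControl and from 3958 to 4045 CPM in shSTBD1. Of 8 markers of other cell types, PTPRC and CD3E are at 0 in all 6 libraries, the other untested ones reach at most 0.23 CPM, COL1A1 is not called, and CD68 is higher. The sum of these 8 runs from 41.5 to 47.5 CPM in shControl and from 50.2 to 54.7 CPM in shSTBD1. The part of any of these markers in the results below was not tested. In bulk RNA, a change in the share of cells that express a gene and a change in its RNA per cell cannot be told apart.

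Among the 32 genes, 7 differ between shSTBD1 and shControl at an adjusted p under 0.05 (edgeR quasi-likelihood test). INSIG1, IDI1, SQLE, MSMO1, STARD4 and ELOVL6 are higher in shSTBD1, and SCAP is lower. These 7 are 21.9% of the members, against 15.8% of all genes tested, so the share of members called is near that of other genes. By direction, 6 of 32 members are higher, a larger share than the 8.22% of all genes (1280 of 15566). Only 1 of 32 is lower, a smaller share than the 7.54% of all genes (1173 of 15566). These differences in share were not tested. At an unadjusted p under 1e-5 in the edgeR quasi-likelihood test, only INSIG1 and ELOVL6 pass among the members, against 371 of 15566 genes (2.38%). The study used this p cut with DESeq2 and with a condition on the TPM fold change. Its full rule was not applied here. The 3 libraries of each group do not overlap in 12 of 32 members, against 5235 of 15566 genes (33.6%). The estimated log2 fold change is above 0 in 25 of 32 members, against 7896 of 15566 genes, and below 0 in 7. The median is 0.03 over the members and 0.0023 over all genes tested. Most estimates lie within a few percent of 0, as the plot of the fold changes shows.

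**Figure D1:**
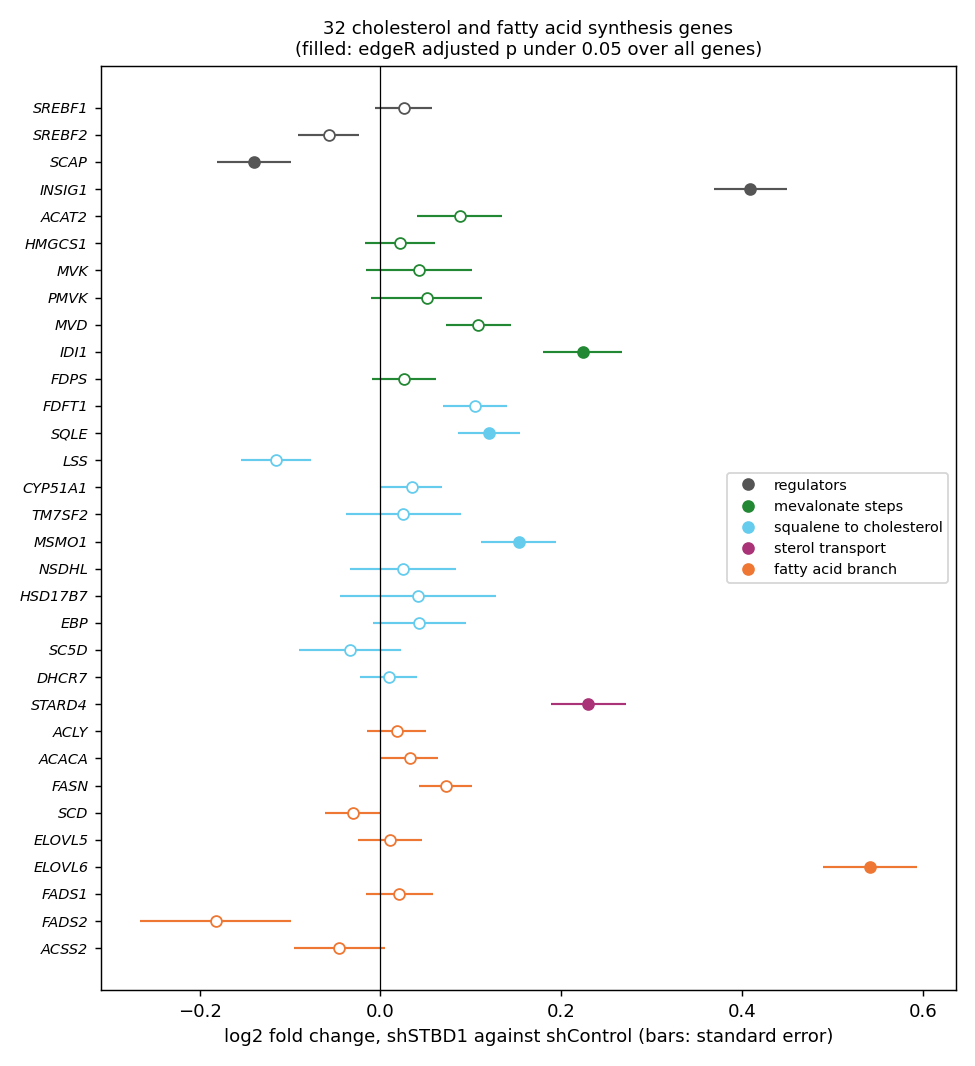
Log2 fold change of each of the 32 genes in shSTBD1 against shControl (x axis), with bars of 1 standard error from edgeR's quasi-likelihood fit. Genes are ordered by their place in the pathway and coloured by group, and filled points have an adjusted p under 0.05. ELOVL6 at 0.54 and INSIG1 at 0.41 stand to the right, and SCAP at -0.14 is the only filled point below 0.

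The regulators move in different directions. INSIG1, which retains the SCAP complex in the endoplasmic reticulum, rises by 32.8% in shSTBD1, while SCAP, the escort of the SREBP precursors, is lower, with a change of -9.25%. The genes of the factors themselves, SREBF1 and SREBF2, are not called.

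INSIG1 (ENSG00000186480, chr7:155297776-155310235 of GRCh38, plus strand) is at 64.5, 67.8 and 63.9 CPM in the 3 shControl libraries and at 89.9, 85.1 and 86.0 CPM in the 3 shSTBD1 libraries. Every shSTBD1 library lies above every shControl library by more than the spread within either group. The log2 fold change is 0.41 (standard error 0.040, edgeR quasi-likelihood adjusted p = 3.2e-06), and the call holds in all 17 alternative analyses. With 1 library left out it runs from 0.38 to 0.44.

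SCAP (ENSG00000114650, chr3:47413681-47477126, minus strand) is at 87.9, 80.8 and 82.3 CPM in shControl and at 74.2, 76.4 and 77.1 CPM in shSTBD1. All shSTBD1 libraries are lower, but the gap between the groups is narrower than the range within shControl. The log2 fold change is -0.14 (standard error 0.041, edgeR quasi-likelihood adjusted p = 0.0281). This call is lost under 9 of the 17 alternatives, among them the removal of shControl replicate 1, shControl replicate 3 or any 1 of the 3 shSTBD1 libraries, where the edgeR adjusted p lies between 0.05 and 0.101.

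SREBF1, whose products drive fatty acid synthesis above all, is at 254.9, 249.9 and 253.1 CPM in shControl and at 253.1, 265.6 and 252.6 CPM in shSTBD1. Its groups overlap (log2 fold change 0.03, standard error 0.032, edgeR quasi-likelihood adjusted p = 0.64). SREBF2, which drives sterol synthesis above all, is at 265.4, 252.8 and 248.0 CPM in shControl and at 250.0, 245.0 and 241.5 CPM in shSTBD1. Here too the groups overlap, since shSTBD1 replicate 1 lies above shControl replicate 3 (log2 fold change -0.06, standard error 0.033, edgeR quasi-likelihood adjusted p = 0.272). Neither is called in any of the 17 alternatives. The RNA level says nothing of how much of each factor is cleaved.

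On the scale of TPM, which divides each count by transcript length and so allows a comparison between genes, the ratio of INSIG1 to SCAP is 0.992, 1.19 and 1.17 in shControl and 1.63, 1.49 and 1.41 in shSTBD1. Its mean goes from 1.12 ± 0.11 to 1.51 ± 0.11 (SD, n = 3 each), without overlap. The TPM of each of these genes alone also separates the groups, in opposite directions, so the ratio is no added result. SREBF1 is the more abundant of the factor genes in all 6 libraries, with a TPM ratio to SREBF2 of 2.15 ± 0.12 in shControl and 2.28 ± 0.13 in shSTBD1 (SD, n = 3 each).

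Promoter sequences of RefSeq on GRCh38.p14, from 250 bases before to 50 bases after the annotated start, were found for 28 of the 32 members. ACAT2, FASN, FDFT1 and SQLE were not matched. The sterol regulatory motif TCACNCCAC, sought on both strands, lies in 1 of the 28, that of SREBF2, and in 1.03% of the promoters of 11167 tested genes. CCAAT, the letters bound by NF-Y, a factor known to act beside the SREBP proteins, lies in 19 of the 28 (67.9%), in 3 of the 6 called members matched, and in 36.5% of all. The E-box TCACGTGA, chosen after the sequences were seen, lies in 1 of the 28, that of INSIG1, and in 1.89% of all. These matches describe letters and no binding was measured. The promoter stretches outside coding gene exons are printed for INSIG1, the regulator with the largest change, and for SREBF2, which was chosen after its match was seen. Capitals mark TCACNCCAC and CCAAT or its reverse complement, and both stretches are read 5′ to 3′ on the plus strand.
INSIG1, chr7:155297628-155297775: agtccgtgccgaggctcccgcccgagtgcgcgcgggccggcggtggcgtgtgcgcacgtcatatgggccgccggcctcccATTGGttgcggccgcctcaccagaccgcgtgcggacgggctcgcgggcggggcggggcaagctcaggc
SREBF2, chr22:41832945-41833104: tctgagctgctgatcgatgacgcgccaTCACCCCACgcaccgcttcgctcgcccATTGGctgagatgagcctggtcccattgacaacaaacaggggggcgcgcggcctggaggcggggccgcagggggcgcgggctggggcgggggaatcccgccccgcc
In SREBF2 the sterol motif begins at position -133 from the start and the reversed CCAAT at position -106. In INSIG1 the reversed CCAAT begins at position -170, and its E-box begins at position -56, downstream of the printed stretch.

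The enzymes from acetyl-CoA to farnesyl diphosphate (ACAT2, HMGCS1, MVK, PMVK, MVD, IDI1 and FDPS) hold 1 called gene of 7 (14.3%, against 15.8% of all genes), with all 7 estimates above 0, against 7896 of 15566 genes, and a median log2 fold change of 0.05. The called gene is IDI1, which interconverts the isoprenoid building blocks isopentenyl and dimethylallyl diphosphate. IDI1 (ENSG00000067064, chr10:1039152-1049119, minus strand) is at 71.6, 79.1 and 80.1 CPM in shControl and at 90.3, 91.3 and 88.0 CPM in shSTBD1. All shSTBD1 libraries lie above the highest shControl library, and shControl replicate 1 is the lowest of the 6. The log2 fold change is 0.22 (standard error 0.044, edgeR quasi-likelihood adjusted p = 0.00221). IDI1 stays called with any 1 library left out, between 0.17 and 0.25, and it loses the call with offsets for effective length and in both limma fits of TPM, with adjusted p from 0.11 to 0.219. Its exons share bases with IDI2-AS1 on the opposite strand, and the sources do not state if strand was used in counting.

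MVD, which makes isopentenyl diphosphate, is the nearest of the others to the threshold. It is at 92.9 ± 2.12 CPM in shControl and 100.1 ± 2.12 CPM in shSTBD1 (SD, n = 3 each), without overlap (log2 fold change 0.11, standard error 0.036, edgeR quasi-likelihood adjusted p = 0.0518). Without shControl replicate 1 it passes, with an edgeR adjusted p of 0.0179. ACAT2, the thiolase of the first step, is at 38.2 ± 0.75 and 40.5 ± 0.17 CPM (SD, n = 3 each) without overlap, yet its adjusted p in the edgeR test is 0.229. ACAT2 shares exon bases with TCP1 and SOD2 on the opposite strand. HMGCS1, which makes HMG-CoA, and FDPS, which makes farnesyl diphosphate, have log2 fold changes of 0.02 and 0.03, and the kinases MVK and PMVK of 0.04 and 0.05, all with overlapping groups.

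Of the 11 genes from squalene to cholesterol, SQLE and MSMO1 are called (18.2%, against 15.8% of all genes), both higher. Estimates of 9 of the 11 are above 0, against 7896 of 15566 genes, with a median log2 fold change of 0.03. SQLE, the squalene epoxidase that begins the oxygen-dependent steps, rises by 8.68%. SQLE (ENSG00000104549) is at 95.3, 93.3 and 94.8 CPM in shControl and at 102.6, 104.5 and 100.8 CPM in shSTBD1. The groups are apart by more than the spread within either (log2 fold change 0.12, standard error 0.035, edgeR quasi-likelihood adjusted p = 0.0261). The call is lost under 9 of the 17 alternatives, among them the removal of shControl replicate 2, shControl replicate 3 or any 1 shSTBD1 library, with edgeR adjusted p between 0.0525 and 0.12.

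MSMO1, an oxidase that takes part in the removal of the methyl groups at the fourth carbon of the sterol ring, rises by 11.2%. MSMO1 (ENSG00000052802, chr4:165327667-165343164, plus strand) is at 59.3, 58.0 and 60.5 CPM in shControl and at 67.2, 63.8 and 66.8 CPM in shSTBD1. No library of one group reaches the other (log2 fold change 0.15, standard error 0.041, edgeR quasi-likelihood adjusted p = 0.0188). The call is lost under 7 of the 17 alternatives. Without shControl replicate 2, shSTBD1 replicate 1 or shSTBD1 replicate 3 the edgeR adjusted p is 0.0627, 0.0815 and 0.0792, and with DESeq2, effective-length offsets and both limma fits of TPM the adjusted p lies between 0.0764 and 0.253. With 4 matches, its promoter holds the most CCAAT letters of the called members, and the stretch with 3 of them is printed, with CCAAT in capitals, on the plus strand.
MSMO1, chr4:165327507-165327666: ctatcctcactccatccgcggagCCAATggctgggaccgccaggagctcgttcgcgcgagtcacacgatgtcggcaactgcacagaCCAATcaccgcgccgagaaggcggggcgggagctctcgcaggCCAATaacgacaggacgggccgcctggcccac

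Among the other enzymes of these steps, FDFT1 and LSS narrowly miss the threshold, on opposite sides of 0. FDFT1, the squalene synthase, is at 135.3 ± 5.43 CPM in shControl and 145.5 ± 0.96 CPM in shSTBD1 (SD, n = 3 each), without overlap (log2 fold change 0.10, edgeR quasi-likelihood adjusted p = 0.054). LSS, the lanosterol synthase, is at 85.6 ± 2.60 and 79.0 ± 1.91 CPM (SD, n = 3 each), also without overlap (log2 fold change -0.12, edgeR quasi-likelihood adjusted p = 0.0523). Thus the enzymes that act just before and just after squalene epoxidation have estimates of unlike sign. The remaining 7 genes (CYP51A1, TM7SF2, NSDHL, HSD17B7, EBP, SC5D and DHCR7), which modify the sterol ring, have log2 fold changes between -0.03 and 0.04. The groups overlap in all 7.

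STARD4, a carrier that moves cholesterol between membranes, rises by 17.3%. STARD4 (ENSG00000164211, chr5:111496033-111512590, minus strand) is at 58.3, 55.6 and 54.8 CPM in shControl and at 66.9, 65.6 and 65.4 CPM in shSTBD1. The lowest shSTBD1 library is well above the highest shControl library (log2 fold change 0.23, standard error 0.041, edgeR quasi-likelihood adjusted p = 0.00122). The call holds with any 1 library left out, from 0.21 to 0.25, and is lost with offsets for effective length and in both limma fits of TPM, with adjusted p from 0.118 to 0.18. STARD4-AS1 on the opposite strand shares exon bases with it. The promoter stretch of STARD4 on the minus strand holds CCAAT at positions -161 and -130, in capitals.
STARD4, chr5:111512591-111512750: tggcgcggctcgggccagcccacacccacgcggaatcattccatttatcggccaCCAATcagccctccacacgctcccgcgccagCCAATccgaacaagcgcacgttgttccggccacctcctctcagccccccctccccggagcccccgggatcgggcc

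Of the 9 genes of the fatty acid branch, ELOVL6 alone is called. ELOVL6 elongates saturated and monounsaturated long-chain fatty acids, and its RNA rises by 45.5% in shSTBD1, the largest change among the 32 members. ELOVL6 (ENSG00000170522, chr4:110045846-110199199, minus strand) is at 45.8, 44.1 and 41.3 CPM in shControl and at 61.6, 61.7 and 67.9 CPM in shSTBD1. The lowest shSTBD1 library is above the highest shControl library by more than the range of either group (log2 fold change 0.54, standard error 0.052, edgeR quasi-likelihood adjusted p = 2.37e-06). The call holds in all 17 alternatives, and with 1 library left out the estimate runs from 0.49 to 0.57. A gene on the opposite strand, ENSG00000288913, shares exon bases with ELOVL6. Its promoter stretch is printed on the minus strand for contrast, in lower case throughout, since none of the 3 motifs matches in the 300 bases searched.
ELOVL6, chr4:110198654-110198813: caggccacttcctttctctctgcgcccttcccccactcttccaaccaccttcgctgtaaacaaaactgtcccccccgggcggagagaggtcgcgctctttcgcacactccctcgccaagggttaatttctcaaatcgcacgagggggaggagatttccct

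The enzymes that feed or precede ELOVL6 are not called. ACLY, which makes cytosolic acetyl-CoA from citrate, and ACACA, which makes malonyl-CoA, have log2 fold changes of 0.02 and 0.03, and ACSS2, which makes acetyl-CoA from acetate, of -0.05. FASN, the fatty acid synthase, is at 1869, 1809 and 1814 CPM in shControl and at 1898, 1947 and 1929 CPM in shSTBD1, without overlap, and its estimate of 0.07 has an edgeR adjusted p of 0.108. Without shControl replicate 1 FASN is called, with an edgeR adjusted p of 0.00299. SCD, which places the first double bond, is at 1600 ± 36.7 CPM in shControl and 1566 ± 29.0 CPM in shSTBD1 (SD, n = 3 each), with overlap. ELOVL5, the elongase of polyunsaturated fatty acids, has an estimate of 0.01 and the desaturase FADS1 of 0.02.

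FADS2, the other desaturase of polyunsaturated fatty acids, has the lowest estimate of the members, -0.18 (standard error 0.084, edgeR quasi-likelihood adjusted p = 0.155). It is at 21.1, 16.9 and 20.1 CPM in shControl and at 18.2, 16.7 and 16.3 CPM in shSTBD1. The groups overlap because of shControl replicate 2, without which FADS2 is called at -0.28 (edgeR adjusted p = 0.0268). FADS1 and FADS2 share exon bases on opposite strands.

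**Figure D2:**
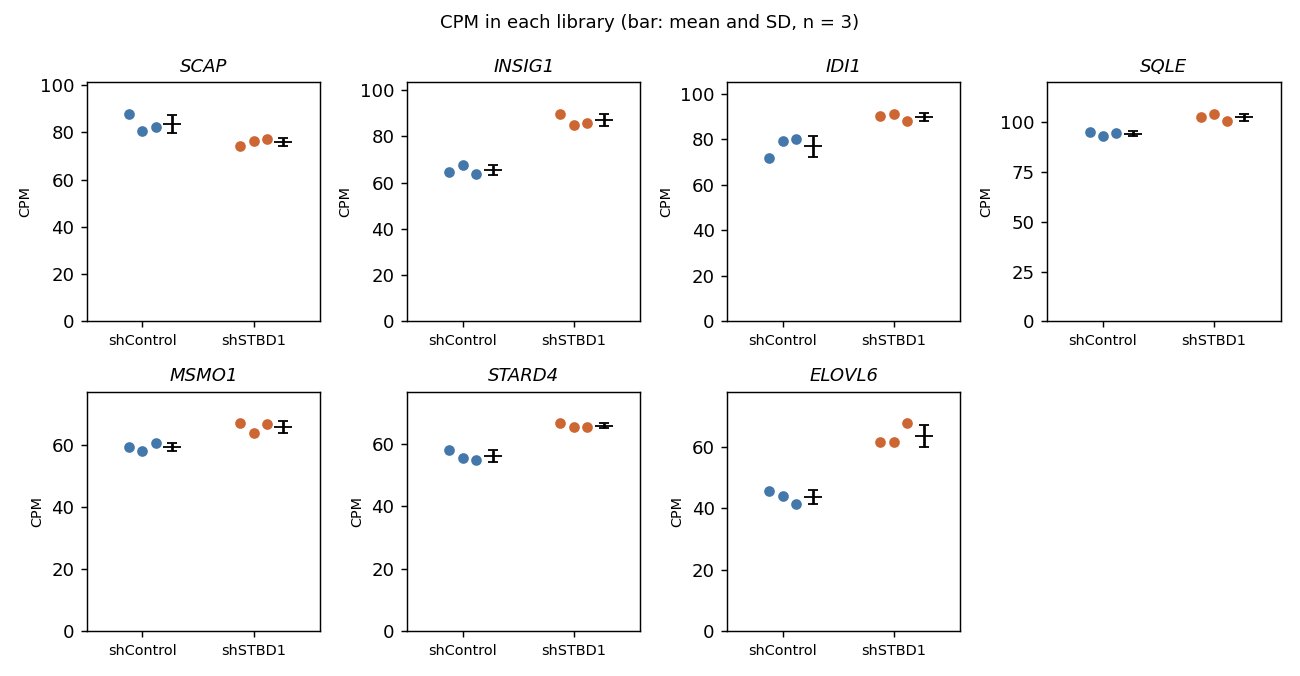
CPM of the 7 called members in each library (y axis, from 0), with shControl in blue and shSTBD1 in orange and the mean and SD of 3 libraries beside the points. The groups do not overlap in any panel, and the gap is widest in INSIG1 and ELOVL6.

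Taken singly, each of these 7 genes gives p = 0.1 (two-sided) in an exact permutation test of its CPM over libraries, the smallest value possible with 3 libraries a group. Any gene whose groups do not overlap gives this value, and 33.6% of all genes tested are such genes. The test therefore adds nothing to the lack of overlap. The count of 7 changes with the test and with single libraries, as does that of all genes. DESeq2 calls 4 members, against 10.1% of all genes, and without shSTBD1 replicate 1 or without shSTBD1 replicate 3 edgeR calls 4, against 10.4% and 9.75% of all genes. With offsets for effective length edgeR calls 2, INSIG1 and ELOVL6, against 3.28% of all genes.

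The sterol branch has 3 called genes of 18 (16.7%), all higher, and the fatty acid branch 1 of 9 (11.1%), also higher, both near the 15.8% of all genes. Estimates are above 0 in 16 of 18 sterol genes and in 6 of 9 fatty acid genes, against 7896 of 15566 genes. Some of these estimates, in both branches, change sign under the alternatives. The median log2 fold change is 0.04 in the sterol branch and 0.02 in the fatty acid branch. In each library the CPM of every gene was also set against its shControl mean, and the median of these log2 values was taken over each branch. For the sterol branch this median is 0.01, -0.01 and 0.03 in shControl and 0.04, 0.07 and 0.06 in shSTBD1, so the shSTBD1 libraries are the higher ones. For the fatty acid branch it is 0.03, -0.03 and -0.01 in shControl and -0.0005, 0.03 and 0.04 in shSTBD1, so the groups overlap. The difference between the branches was not tested. With offsets for gene length the medians take the opposite order, 0.02 in the sterol and 0.04 in the fatty acid branch.

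**Figure D3:**
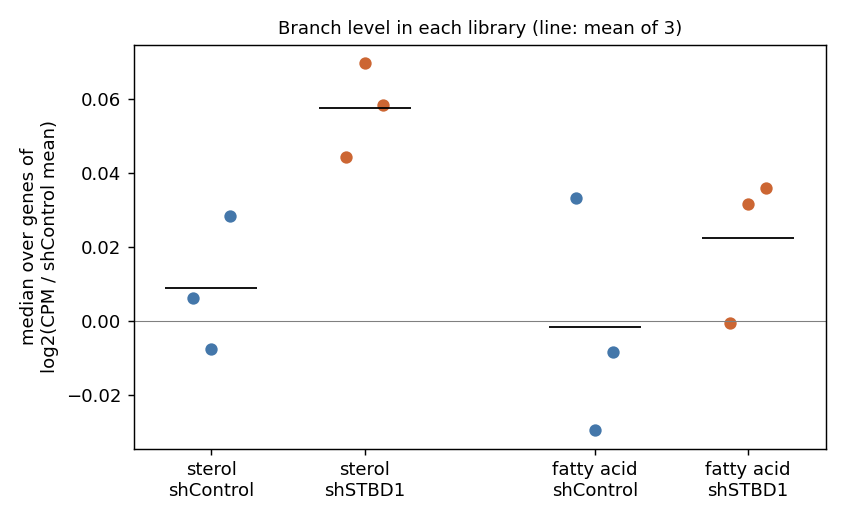
Median over the 18 sterol genes and the 9 fatty acid genes of the log2 ratio of a library's CPM to the shControl mean (y axis), with 1 point per library and a line at the mean of 3. The sterol medians of shSTBD1 lie above those of shControl, from 0.04 to 0.07 against -0.01 to 0.03, and the fatty acid medians overlap.

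Summed over the 18 sterol genes, the level per length is 911.5, 971.3 and 989.2 TPM in shControl and 1012, 975.5 and 968.8 TPM in shSTBD1. The sums of the groups overlap. The 9 fatty acid genes sum to 1003 ± 7.77 TPM in shControl and 1010 ± 24.8 TPM in shSTBD1 (SD, n = 3 each), also with overlap. On this scale the sterol genes, at 957.4 ± 40.7 TPM in shControl (SD, n = 3), are together about as abundant in HCT116 as the fatty acid genes.

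The members span a wide range of levels per length. SCD at 359.7 ± 1.05 TPM and FASN at 308.8 ± 4.78 TPM (SD, n = 3, shControl) are the most abundant, and together they hold 29.4% of the summed TPM of the 32 members in shControl and 28.6% in shSTBD1. FDPS, SREBF1, ACLY, FDFT1 and EBP follow, each above 100 TPM in the mean of both groups. HSD17B7, at 11.2 ± 1.40 TPM, and FADS2, at 9.80 ± 1.54 TPM (SD, n = 3, shControl), are the lowest. The called members hold places 12 to 29 of the 32 in this order, with INSIG1 at 36.9 ± 1.43 and ELOVL6 at 16.5 ± 1.49 TPM in shControl against 46.8 ± 2.88 and 23.8 ± 1.43 TPM in shSTBD1 (SD, n = 3 each). The TPM ratio of ELOVL6 to the polyunsaturated elongase ELOVL5 is 0.255 ± 0.019 in shControl and 0.339 ± 0.034 in shSTBD1 (SD, n = 3 each), without overlap. It restates the rise of ELOVL6, which is called by itself. The lowest expected count of any member in any library is 190.7, in HSD17B7, so no member is limited by very low counts.

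**Figure D4:**
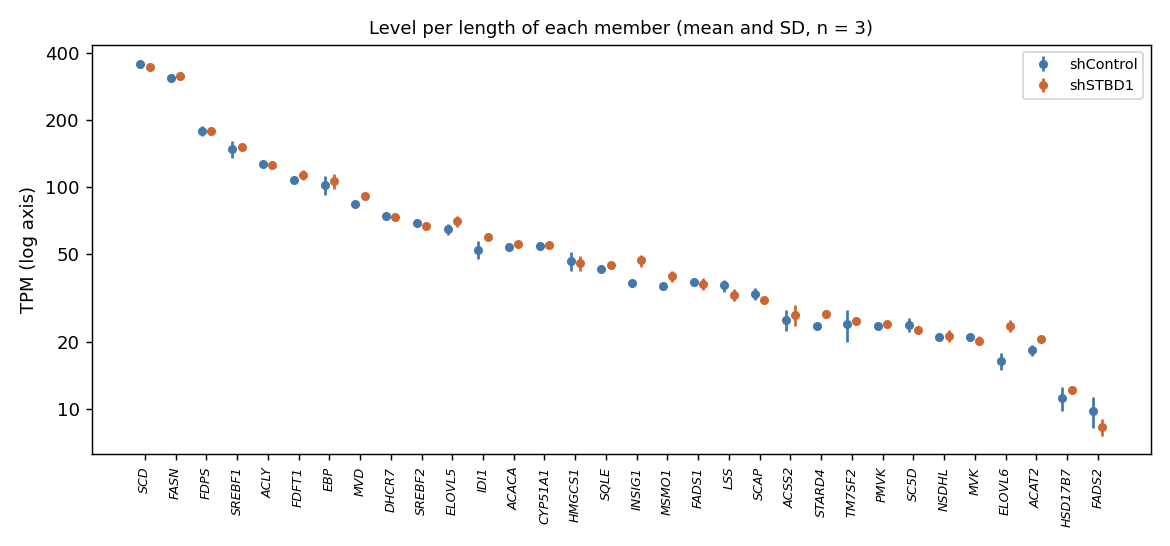
Mean TPM of each member in shControl (blue) and shSTBD1 (orange) on a log axis, with bars of 1 SD over 3 libraries, ordered by the mean of both groups. SCD and FASN lead at over 300 TPM, FADS2 is last below 10 TPM, and INSIG1 and ELOVL6 show the clearest separation of the groups.

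Other genes of the pathway, in 5 lists chosen beside the members, hold 7 called genes of 47 tested, with 4 higher and 3 lower. This is 14.9%, near the 15.8% of all genes. These lists too were chosen with earlier results of these data known. Of 6 genes of SREBP processing, INSIG2, the relative of INSIG1 with the same role, is higher at 0.22 (edgeR quasi-likelihood adjusted p = 0.0218), and MBTPS1, the first protease that cuts the precursors, is lower at -0.10 (edgeR adjusted p = 0.0464). INSIG2 is at 24.3, 26.0 and 28.1 CPM in shControl and at 29.2, 30.9 and 31.4 CPM in shSTBD1, so both INSIG genes are higher while SCAP and MBTPS1 are lower. The INSIG2 call is lost under 7 of the 17 alternatives and the MBTPS1 call under 13, DESeq2 among them for both. Of single libraries, the INSIG2 call is lost without shControl replicate 1, shSTBD1 replicate 2 or shSTBD1 replicate 3, with edgeR adjusted p from 0.0632 to 0.09, and the MBTPS1 call without 5 of the 6 libraries, all but shControl replicate 1, with 0.0932 to 0.151.

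Of 6 further genes of isoprenoid and sterol metabolism, NUS1, a subunit of the enzyme that makes dolichol precursors, is lower at -0.15 (edgeR adjusted p = 0.0157). TMEM97, a sterol-binding membrane protein, is lower at -0.14 (edgeR adjusted p = 0.035). Under 11 of the 17 alternatives, DESeq2 among them, TMEM97 is not called, and NUS1 under 6. The TMEM97 call is lost when any 1 library is left out, with edgeR adjusted p from 0.053 to 0.135, and the NUS1 call without shControl replicate 3, shSTBD1 replicate 1 or shSTBD1 replicate 3, with 0.0528 to 0.0828. No gene of this list is called higher, against 8.22% of all genes. Of the 6, 2 have estimates above 0, against 7896 of 15566 genes.

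Of 15 tested genes that supply or modify fatty acids beside the members, 3 are called, all higher. SLC25A1, the mitochondrial carrier that exports the citrate from which ACLY makes acetyl-CoA, is at 56.3, 55.9 and 58.8 CPM in shControl and at 89.3, 91.1 and 92.0 CPM in shSTBD1. Its rise of 59.5% (log2 fold change 0.67, standard error 0.039, edgeR quasi-likelihood adjusted p = 1.29e-08) exceeds that of any member and holds in all 17 alternatives. ELOVL1, the elongase of very long saturated fatty acids, is at 80.1 ± 2.19 CPM in shControl and 95.7 ± 0.61 CPM in shSTBD1 (SD, n = 3 each) and is called in all 17 as well (log2 fold change 0.26, edgeR adjusted p = 0.000133). FADS3, a relative of FADS1 and FADS2, is higher at 0.20 (edgeR adjusted p = 0.0398), a call lost under 8 of the 17 alternatives, among them DESeq2 (adjusted p = 0.0823) and, in edgeR, without shControl replicate 1, shSTBD1 replicate 2 or shSTBD1 replicate 3, with adjusted p from 0.118 to 0.164.

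None of 9 genes that activate fatty acids and build glycerolipids is called by edgeR, and none of 11 tested genes of sterol uptake, traffic, esterification and export, which include targets of the sterol-sensing LXR receptors. Over all genes edgeR calls 15.8%, so the lack of a call in lists this short says little. At an unadjusted p under 0.05, edgeR has 4 of the 9 and 5 of the 11, against 30.0% of all genes. DESeq2 and both limma fits of TPM call 0 in each list, where they call 10.1%, 1.88% and 1.86% of all genes. VLDLR and ELOVL4 held too few counts to be tested.

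The study's hairpins share 7-base stretches with the 3′ UTRs of many genes, and these stretches were known from earlier results on the series. GTGTCAC, a stretch of the shControl hairpin, lies in the 3′ UTR of 3 of the 32 members (9.38%), ELOVL6, FADS1 and SC5D, and of 9.82% of 13036 tested genes. ELOVL6 holds it at 2 places, shown because ELOVL6 changes most, with the stretch in capitals on the minus strand.
ELOVL6, chr4:110050965-110050991: tatttactaaGTGTCACatttctctaa
ELOVL6, chr4:110047376-110047402: accacggtgtGTGTCACacaaccgagg
FADS1 and SC5D, with log2 fold changes of 0.02 and -0.03, hold it once each, and so do SLC25A1 (0.67), INSIG2 (0.22), ACACB (0.10) and HACD2 (-0.0038) of the other pathway genes, while LRP8 (0.03) holds it at 2 places. ACACB, HACD2 and LRP8 are not called and were named after their values were seen, for this match alone. Over all genes the median log2 fold change is 0.02 with the stretch and 0.0026 without it. GATTTCT, a stretch of the shSTBD1 hairpin, lies in 8 members (25.0%) and 18.5% of all genes, with median log2 fold changes over all genes of -0.01 and 0.01. Among the called members INSIG1 and STARD4 hold it, and both are higher in shSTBD1. Of the called genes in the other pathway lists only NUS1 holds it, and NUS1 is lower, at -0.15. The part of these stretches in the results was not tested.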

How the data were processed

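The authors used STAR 2.7.1a to align the reads to Hg38, with gene models of Ensembl release 93, and RSEM 1.3.1 to estimate abundance. The deposited files hold, for each gene and library, the expected count, which is not normalized, and the TPM, which the authors scaled by effective length. Expected counts were rounded, filtered with filterByExpr (15566 of 58395 genes kept), scaled by TMM and compared with edgeR 4.0.16 (R 4.3.3), quasi-likelihood F-test, group term only, Benjamini-Hochberg over all tested genes, called at an adjusted p under 0.05. Standard errors are the absolute log2 fold change over the square root of F. Alternatives were DESeq2 1.42.0, other scalings and filters, the omission of single libraries, a replicate block, length offsets, and limma 3.58.1 on log2(TPM + 1) or log2(TPM + 0.1). The members and lists were chosen with earlier results of these data known. All 32 members may be named, with values in every library for regulators and called members, and in each other list at most the 4 called genes with the largest change. Positions and 3′ UTRs are from GENCODE release 44, promoters from RefSeq, both on GRCh38.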

Additional observations from a re-analysis of the deposited data

How the results depend on the processing

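STBD1 keeps its direction throughout and misses the threshold in limma on log2(TPM + 1) (-0.54, adjusted p = 0.0646) and on log2(TPM + 0.1) (-0.65, adjusted p = 0.0672). The count of members called, 7, becomes 4 with DESeq2, 2 with effective-length offsets and 2 in each limma fit. In these fits, in this order, 10.1%, 3.28%, 1.88% and 1.86% of all genes are called. With a library left out the count of members is 4 to 8, against 9.28% to 16.8% of all genes. The 3 calls of the sterol branch become 1 with DESeq2, 0 with effective-length offsets and in each limma fit, and 1 to 4 with a library left out. With at least 10 counts in every library they become 6, LSS among them as lower, against 17.9% of all genes. The 1 call of the fatty acid branch becomes 2 with library size alone, 2 with gene-length offsets with or without the block, and 1 to 2 with a library left out, as FASN or FADS2 then passes. The sterol median falls to 0.0186 with gene-length offsets (0.0183 with the block added), and the fatty acid median rises to 0.0502 with effective-length offsets. With a library left out the fatty acid median runs from 0.0061, without shControl replicate 2, to 0.0195, and the sterol median from 0.0369 to 0.0548. The causes were not tested.

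With the replicate block, 9 members are called, against 16.6% of all genes, and 5 sterol genes, since FDFT1 (higher) and LSS (lower) then pass. The deviations of same-numbered libraries correlate across genes at 0.071, 0.068 and -0.0084, and those of unlike-numbered libraries from -0.074 to 0.010. The sample labels give a number and state no pairing. With 3 libraries a group, these values cannot show if the samples were paired.

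Estimates of 13 members that are called in no analysis change sign. With effective-length offsets, limma on log2(TPM + 1) and limma on log2(TPM + 0.1), in this order, HMGCS1 is at -0.0275, -0.0364 and -0.037, MVK at -0.0387, -0.0487 and -0.0508, DHCR7 at -0.0056, -0.0155 and -0.0157, ACLY at -0.0098, -0.0199 and -0.0201, FADS1 at -0.0175, -0.0276 and -0.0283, and ACSS2 at 0.0897, 0.0731 and 0.0757. With gene-length offsets, without and with the replicate block, FDPS is at -0.026 and -0.0264, TM7SF2 at -0.0106 and -0.012, EBP at -0.0312 and -0.0311, and SCD at 0.0034 in both. With a library left out, the estimates run from -0.0067 to 0.0486 in HMGCS1, -0.0008 to 0.0446 in FDPS, -0.0063 to 0.0695 in TM7SF2, -0.0157 to 0.0451 in NSDHL, -0.0056 to 0.0805 in HSD17B7, -0.0043 to 0.0168 in DHCR7, and -0.0018 to 0.0307 in ELOVL5.

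With 3 libraries a group, the calls of SCAP, SQLE, MSMO1, MVD, FASN, FADS2, INSIG2, MBTPS1, NUS1, TMEM97 and FADS3 are lost or gained when single libraries are left out.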
